A study of Arabidopsis thaliana with 12 samples.

Results

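Auxin acts in Arabidopsis thaliana through 3 gene classes that were followed together here, the Aux/IAA repressors, the auxin response factors (ARFs) and the TIR1/AFB receptors. The set was fixed by locus and held 50 of the 33618 gene IDs of the expression table, 29 Aux/IAA, 15 ARF and 6 TIR1/AFB genes, and all 50 were found. RNA had been sequenced from whole rosettes of wild type (WT), of vtc2-4 (vtc2), of vtc4-4 (vtc4) and of vtc2/OE-VTC2 L15 (OE), which is 1 line that carries a VTC2 transgene in the vtc2 background. The products of VTC2 (GDP-L-galactose phosphorylase) and VTC4 (L-galactose 1-phosphate phosphatase) are enzymes of ascorbate synthesis. The sources used here do not name the transgene's promoter. Plants of every genotype were untreated and 4 weeks old. They grew in short days (8 h light, 16 h dark) at 22 °C under 300 µmol photons m-2 s-1 and were harvested 30 min into the light period. Each of the 12 libraries, 3 per genotype, came from an independent pool of 8 rosettes.

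The receptors TIR1 and AFB1 to AFB5 are F-box proteins of an SCF ubiquitin ligase. Auxin sits between the receptor and a short degron in the Aux/IAA protein and glues them together, after which the repressor is ubiquitinated and degraded. Without auxin, Aux/IAA proteins bind ARFs and recruit TOPLESS co-repressors to ARF target genes. ARFs bind auxin response elements in DNA, of which TGTCTC is the classical form and TGTCGG a form bound more strongly. Many Aux/IAA genes are themselves early auxin targets, so the repressor transcripts are part of a feedback loop.

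The degron is shown first because it is the part of an Aux/IAA protein that the receptors grip. The stretches below are coding sequence of TAIR10.1 (RefSeq), 5′ to 3′, and the capitals mark the codons of its core, Gly-Trp-Pro-Pro followed by Val or, in IAA8, by Ile. They are printed for the 4 tested repressor genes whose vtc2 libraries all lay below those of the other genotypes. IAA8, an abundant repressor with the other core, is added.
IAA17: gttgtgGGATGGCCACCGGTGagatca
IAA2: atcgttGGTTGGCCACCAGTGagatct
IAA1: atcgttGGATGGCCTCCAGTGagatct
IAA6: gcggtgGGATGGCCACCTGTGtgttct
IAA8: gttgttGGTTGGCCTCCAATCagatca
The core with Val was encoded by 17 of the 29 Aux/IAA genes and the core with Ile by 5, namely IAA8, IAA11, IAA12, IAA13 and IAA27. Neither was found in 7, IAA10, IAA20, IAA30, IAA31, IAA32, IAA33 and IAA34. No other core was searched for, so a degron of another form could have been missed in these genes.

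The 300 bases upstream of the annotated gene start (TAIR10.1, RefSeq) are shown for the same 4 genes, because Aux/IAA genes are known ARF targets. They are written 5′ to 3′ on the strand of the gene, and capitals mark TGTCTC or TGTCGG on either strand. The windows are chr1:1135778-1136077 for IAA17 on the plus strand, chr3:8182096-8182395 for IAA2 on the minus strand, chr4:8360696-8360995 for IAA1 on the plus strand and chr1:19673653-19673952 for IAA6 on the minus strand.
IAA17: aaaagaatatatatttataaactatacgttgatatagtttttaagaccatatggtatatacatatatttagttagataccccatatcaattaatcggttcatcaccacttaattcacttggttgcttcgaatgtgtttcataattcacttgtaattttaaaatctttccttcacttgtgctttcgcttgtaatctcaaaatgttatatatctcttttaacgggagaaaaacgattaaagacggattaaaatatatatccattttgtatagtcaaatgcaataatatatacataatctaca
IAA2: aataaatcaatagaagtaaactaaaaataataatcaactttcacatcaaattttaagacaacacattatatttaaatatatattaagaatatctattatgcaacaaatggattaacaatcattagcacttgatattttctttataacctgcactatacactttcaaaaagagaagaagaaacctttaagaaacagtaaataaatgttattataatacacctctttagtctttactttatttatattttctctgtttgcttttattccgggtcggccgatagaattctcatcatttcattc
IAA1: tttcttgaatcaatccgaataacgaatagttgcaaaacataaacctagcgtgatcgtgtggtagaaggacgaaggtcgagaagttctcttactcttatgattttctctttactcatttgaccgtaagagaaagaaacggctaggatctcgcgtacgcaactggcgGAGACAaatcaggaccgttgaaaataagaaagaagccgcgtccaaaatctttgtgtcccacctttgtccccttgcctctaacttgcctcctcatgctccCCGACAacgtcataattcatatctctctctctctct
IAA6: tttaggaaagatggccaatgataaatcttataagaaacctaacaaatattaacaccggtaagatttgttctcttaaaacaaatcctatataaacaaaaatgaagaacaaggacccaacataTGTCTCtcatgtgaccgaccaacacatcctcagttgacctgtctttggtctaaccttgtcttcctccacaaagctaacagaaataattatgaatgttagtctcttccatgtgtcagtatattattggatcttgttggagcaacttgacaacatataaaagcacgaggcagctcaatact
The windows of IAA17 and IAA2 held neither motif. In IAA1 the reverse complement of TGTCTC starts at position -135 and that of TGTCGG at -36, counted back from the gene start. In IAA6, TGTCTC starts at -179. Over all 27443 protein-coding genes with such a window, 12.97% held TGTCTC and 4.91% held TGTCGG. Among the Aux/IAA genes, 11 of 29 windows (37.93%) held TGTCTC and 6 (20.69%) held TGTCGG. The numbers were 2 and 2 of 15 for the ARF genes (13.33% each) and 1 and 0 of 6 for the receptor genes (16.67% and 0%). These matches are letters in a window and say nothing of binding.

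Transcripts of the disrupted genes were checked against the labels. VTC2 stood at 819 ± 77.4 FPKM (mean ± SD, n = 3) in WT, 17.2 ± 2.79 in vtc2, 783 ± 65.1 in vtc4 and 383 ± 24.6 in OE. FPKM is a transcript level scaled for transcript length and library size, so levels can be compared between genes. VTC4 stood at 28.3 ± 2.67, 29.0 ± 1.48, 0.373 ± 0.0837 and 23.3 ± 3.02 FPKM in the same order. VTC2 was thus below WT in the libraries labelled OE, and every OE result below is a result of the libraries labelled OE. Between 16591 and 16962 genes per library reached 1 FPKM, and no 2 libraries were identical. The antenna gene LHCB1.1, a leaf marker, stood at 6608 to 8643 FPKM, while the leaf genes RBCS1A and RCA were listed at 0 in all 12 libraries, so an exact 0 in the table is given only as listed at 0. The summed level of 3 root markers was 10.9 to 17.3 FPKM in WT, 24.8 to 31.3 in vtc2, 22.5 to 30.4 in vtc4 and 18.6 to 21.3 in OE. It came almost wholly from PYK10, with RHD6 listed at 0 throughout and WOX5 at most at 0.0923. The part of that marker in the results below was not tested. Flower markers summed to at most 0.906 FPKM. Among shoot meristem markers WUS was listed at 0, CLV3 was above 0 in 1 library and STM stood at 1.15 to 4.20.

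Transcripts of most of the auxin signalling genes were measured in these rosettes. A gene was tested if it reached 1 FPKM in at least 3 of the 12 libraries, as 17290 genes did, and 42 of the 50 did so, 21 Aux/IAA, all 15 ARF and all 6 TIR1/AFB genes. The 8 that did not were all Aux/IAA genes. IAA33 was listed at 0 in every library, and the highest value in any library was 0.0589 FPKM for IAA15, 0.0889 for IAA32, 0.174 for IAA20, 0.333 for IAA34, 0.340 for IAA31, 0.774 for IAA29 and 1.201 for IAA30. Of these 8 genes, 6 encode neither degron core, against 1 of the 21 tested ones (IAA10). IAA15 and IAA29, the remaining 2, encode the core with Val.

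**Figure D1:**
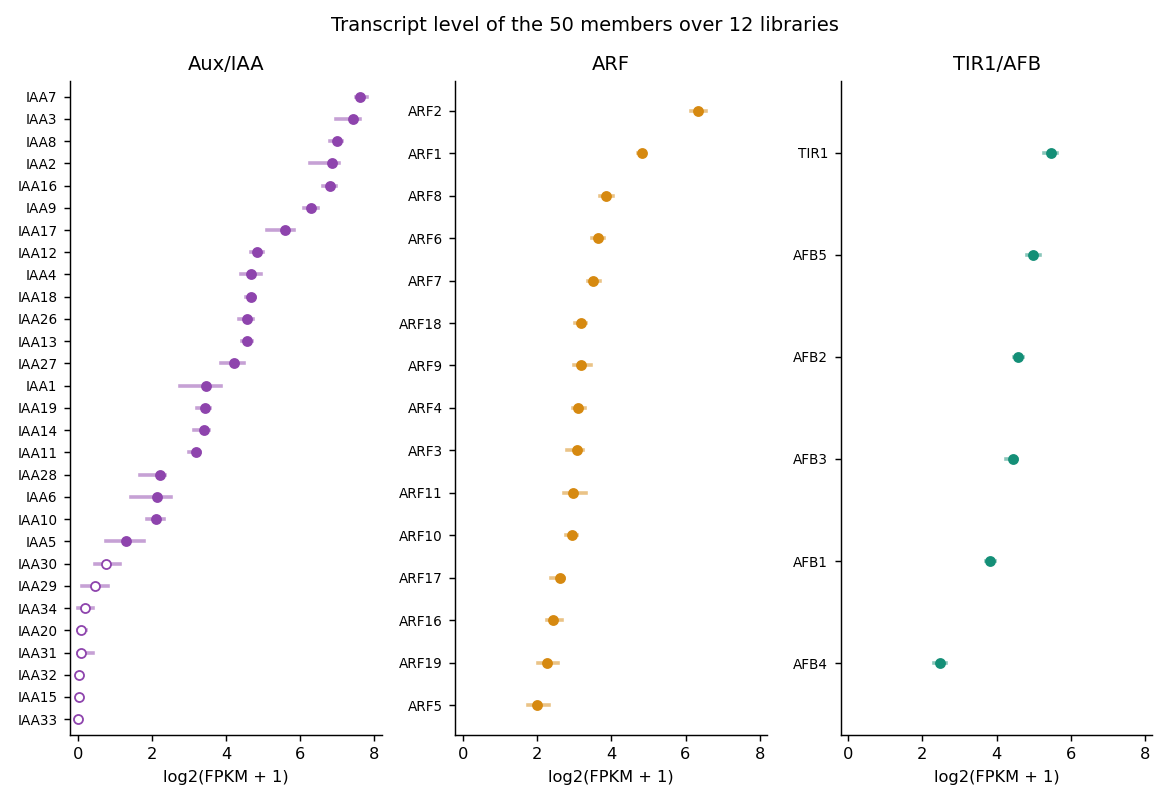
Level of the 50 auxin signalling genes, as log2(FPKM + 1) on the horizontal axis. Points are means over the 12 libraries, bars run from the lowest to the highest library, and open points are the 8 Aux/IAA genes that were not tested. Aux/IAA levels span the widest range, from IAA33, listed at 0, to IAA7 at a mean of 193 FPKM.

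Summed over the members of a class, repressor transcripts were the most abundant of the 3 classes, although many single Aux/IAA genes were low. The 5 highest Aux/IAA genes held 69.5% of the summed Aux/IAA level. They were IAA7 (193 FPKM, mean over 12 libraries), which is known from the gain-of-function mutant axr2, IAA3 (170.0), known as SHY2, IAA8 (126), IAA2 (115) and IAA16 (111). Neighbours in this order overlapped in their ranges over the libraries, IAA3 and IAA8, at 124 to 194 and 110.4 to 140 FPKM, only through vtc2 libraries. Among ARFs, ARF2, a repressor-type factor known for its part in organ size and leaf ageing, led at 79.8 FPKM. It was followed by ARF1 (27.4) and by the activator-type factors ARF8 (13.6) and ARF6 (11.4). The lowest was ARF5 at 3.01 FPKM, the activator known as MONOPTEROS. TIR1 led the receptors at 42.8 FPKM, ahead of AFB5 (30.5), AFB2 (22.9), AFB3 (20.9), AFB1 (13.3) and AFB4 (4.56). In that order only AFB2 and AFB3 overlapped, at 20.97 to 25.1 and 18.1 to 22.6 FPKM. Among the 42 tested members, those that varied most over the 12 libraries were Aux/IAA genes, with a coefficient of variation of 32.7% for IAA5, 24.8% for IAA6, 19.0% for IAA1 and 16.7% for IAA17. For the receptors it was 4.63% to 7.38%.

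Differences between genotypes were tested with limma on log2(FPKM + 1), and calls were made where p, adjusted by Benjamini and Hochberg over all 17290 tested genes, was below 0.05. Differences are given on the log2(FPKM + 1) scale, on which those of low genes are understated. The whole tissue was sequenced, so fewer cells of a type and less RNA per cell cannot be told apart. The comparisons share libraries, vtc2 being part of 3 of them, and are given side by side and not as repeats of each other.

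None of the receptor genes was called in any comparison. In vtc2 against WT, where 3.02% of all tested genes were called, all 6 receptors had small positive differences, from 0.025 for AFB2 to 0.12 for AFB5 on the log2 scale. TIR1 (AT3G62980), the founding auxin receptor, stood at 43.5, 42.9 and 43.0 FPKM in WT, 45.6, 48.7 and 44.1 in vtc2, 39.5, 42.6 and 42.6 in vtc4 and 42.3, 38.1 and 41.1 in OE. Its vtc2 libraries all lay above the libraries of the other genotypes. The difference from WT was 0.094 (SE 0.059, 95% interval -0.034 to 0.22, limma adjusted p = 0.409).

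AFB5 (AT5G49980), which with AFB4 is known for its response to the synthetic auxin picloram, stood at 32.1, 29.8 and 29.9 FPKM in WT, 32.9, 34.9 and 32.3 in vtc2, 29.7, 28.6 and 28.3 in vtc4 and 29.1, 27.1 and 30.8 in OE. Again the vtc2 libraries were all above the rest, by little. AFB5 differed from WT by 0.12 (SE 0.061, limma adjusted p = 0.299). AFB1 (AT4G03190), known for fast responses of the root, stood at 12.7, 12.7 and 13.1 FPKM in WT and at 14.6, 13.8 and 13.5 in vtc2, with no overlap (0.11, limma adjusted p = 0.325). The groups of AFB2, AFB3 and AFB4 overlapped between vtc2 and WT.

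Against vtc2, the libraries labelled OE had lower values of all 6 receptors, with differences of -0.20 to -0.10 on the log2 scale, and none was called. TIR1 (-0.18, SE 0.059, limma adjusted p = 0.0907) and AFB5 (-0.20, SE 0.061, limma adjusted p = 0.0801) came closest, and AFB2 and AFB4 also did not overlap. After rescaling the libraries to a common sum (TPM), both were called, with a limma adjusted p of 0.0455 for TIR1 and 0.049 for AFB5. The rescaling also moved the median of all genes in OE against vtc2 from -0.0022 to -0.052. TIR1 moved from -0.18 to -0.24 and AFB5 from -0.20 to -0.25. In vtc2 against vtc4 all 6 differences were positive, the largest being 0.20 for AFB5 (SE 0.061, limma adjusted p = 0.103) and 0.145 for TIR1 (limma adjusted p = 0.191). In vtc4 and OE against WT the receptor differences lay between -0.10 and 0.050. For TIR1 the 95% interval against WT was -0.18 to 0.077 in vtc4 and -0.22 to 0.041 in OE.

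**Figure D2:**
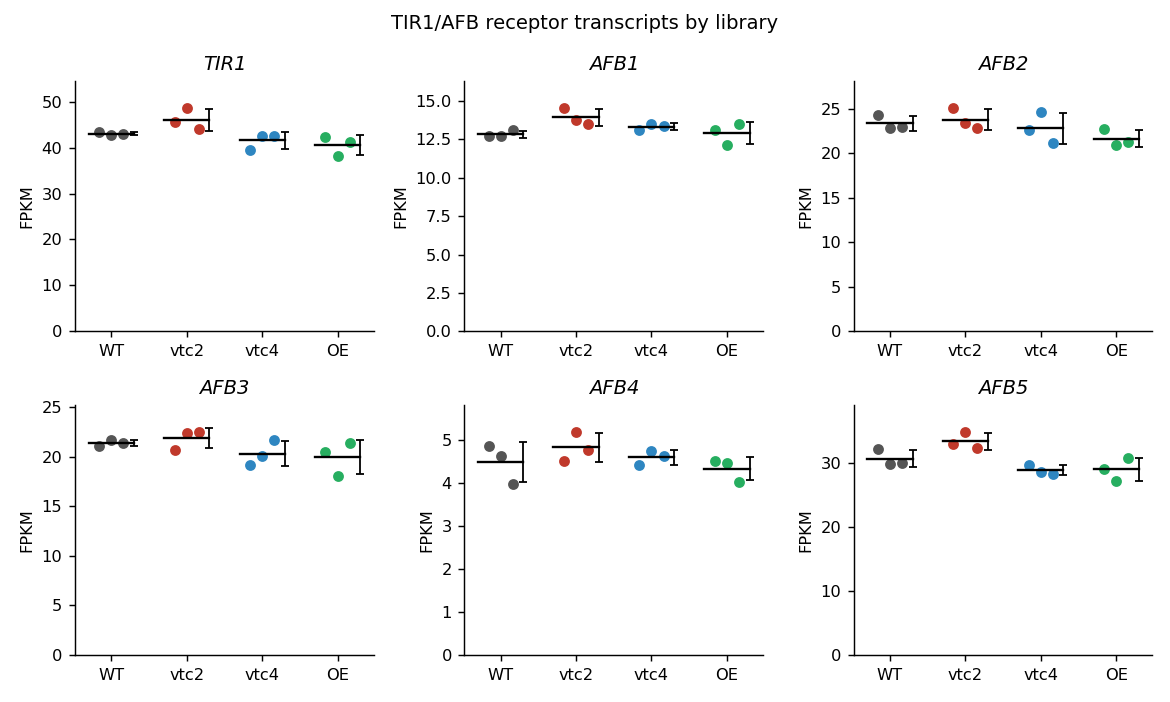
FPKM of the 6 TIR1/AFB receptor genes in each library, with the vertical axis from 0. Points are libraries, horizontal lines are means and error bars are SD (n = 3). The vtc2 libraries sit above those of WT for TIR1, AFB1 and AFB5, by about the spread of the libraries, and no receptor was called.

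The members that were called were repressors, and both had their lowest values in vtc2. IAA17 (AT1G04250), known from the gain-of-function mutant axr3 and located on chromosome 1 at 1136078 to 1138663 (plus strand, TAIR10.1), stood at 48.3, 49.0 and 55.3 FPKM in WT. It stood at 33.2, 36.5 and 35.5 in vtc2, 45.5, 50.2 and 49.6 in vtc4, and 55.7, 54.5 and 51.0 in OE. Every vtc2 library lay below the libraries of the other genotypes, and WT overlapped with vtc4 and with OE. IAA17 fell in vtc2 against WT (-0.52 on the log2 scale, SE 0.068, limma adjusted p = 0.0054) and was the 1 member called there. It was higher in OE than in vtc2 (0.60, SE 0.068, limma adjusted p = 0.00131) and lower in vtc2 than in vtc4 (-0.45, SE 0.068, limma adjusted p = 0.0195). The limma F test over the 4 genotypes called it as well (adjusted p = 0.00568), and no other member. Neither vtc4 (-0.068, 95% interval -0.22 to 0.080) nor OE (0.079, 95% interval -0.069 to 0.23) differed detectably from WT. With only the 2 groups compared in the fit, the call against WT ended at a limma adjusted p of 0.0506 and that against vtc4 at 0.055, and the latter also ended without vtc2 replicate 2 or 3 or vtc4 replicate 2 or 3, at 0.0574 to 0.0974.

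IAA2 (AT3G23030), an early auxin-induced gene, was the other member called. It stood at 111, 116 and 127 FPKM in WT, 97.4, 76.1 and 107 in vtc2, 111, 126 and 128 in vtc4 and 130.2, 127 and 121 in OE. The vtc2 libraries were the lowest 3, with replicate 2 furthest down. OE was higher than vtc2 (0.44, SE 0.11, limma adjusted p = 0.0352), while vtc2 against WT (-0.34, limma adjusted p = 0.102) and against vtc4 (-0.39, limma adjusted p = 0.0815) were not called. The call ended with TPM (limma adjusted p = 0.0543), without a filter (0.0595), with only those groups in the fit (0.105), without vtc2 replicate 2 (0.0978) and without OE replicate 1, 2 or 3 (0.129, 0.0592 and 0.0693).

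IAA6 and IAA1 had low values in vtc2 as well and were not called. IAA6 (AT1G52830), known as SHY1, stood at 4.20, 3.42 and 4.24 FPKM in WT, 2.83, 1.69 and 2.45 in vtc2, 3.12, 4.03 and 4.77 in vtc4 and 3.27, 3.84 and 3.52 in OE. Its vtc2 libraries were all below the rest (against WT -0.59, SE 0.15, limma adjusted p = 0.0525), and it was called against WT with quantile normalization (0.045), without vtc2 replicate 1 (0.0298) and without vtc4 replicate 1 (0.0497). These were 2 of the 12 fits with 1 library left out, and without vtc2 replicate 2 the limma adjusted p of IAA6 was 0.168. IAA1 (AT4G14560), known as AXR5, stood at 9.97, 9.79 and 9.64 FPKM in WT, 9.55, 5.77 and 8.05 in vtc2, 11.9, 13.4 and 10.6 in vtc4 and 11.4, 10.4 and 10.2 in OE. Again vtc2 was lowest, although its replicate 1 nearly reached WT. IAA1 differed by -0.58 between vtc2 and vtc4 (SE 0.13, limma adjusted p = 0.0549) and by -0.32 between vtc2 and WT (limma adjusted p = 0.208). The low gene IAA5 stood at 1.54 ± 0.285 FPKM in WT, 1.03 ± 0.369 in vtc2, 1.96 ± 0.520 in vtc4 and 1.32 ± 0.283 in OE. Its vtc2 libraries overlapped with those of WT and OE, and it was not called.

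**Figure D3:**
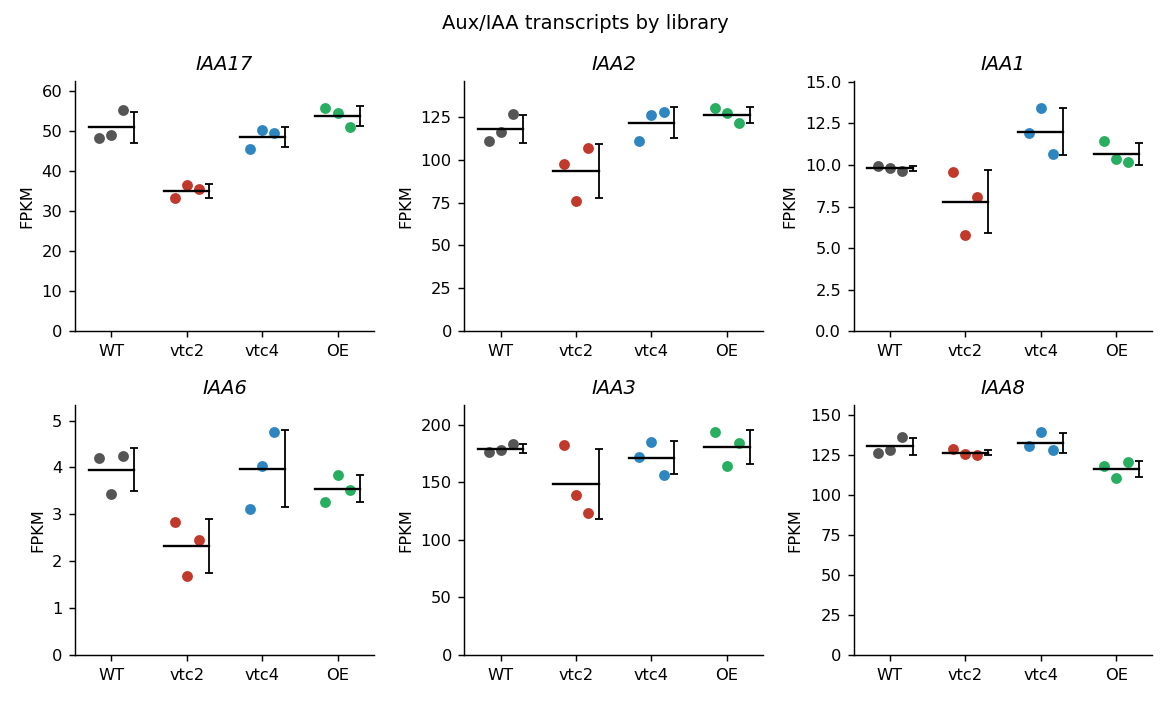
FPKM of 6 Aux/IAA genes in each library, with the vertical axis from 0. Points are libraries, horizontal lines are means and error bars are SD (n = 3). For IAA17, IAA2, IAA1 and IAA6 the vtc2 libraries lie below all others, for IAA3 vtc2 replicate 1 lies with WT, and for IAA8 the OE libraries are lowest.

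None of the other abundant repressors was called. IAA3 stood at 176, 178 and 184 FPKM in WT and at 183, 139 and 124 in vtc2, so that 1 vtc2 library lay within the WT range (-0.29, SE 0.12, limma adjusted p = 0.202). Without that library, vtc2 replicate 1, IAA3 was called at a limma adjusted p of 0.0217. Each library was left out in turn, and IAA3 was called in only 1 of these 12 fits. Without vtc2 replicate 3 its limma adjusted p was 0.493. IAA3 shares 640 bases with a gene on the opposite strand, and since the strand setting of the authors' quantification is not given in the sources used here, its value is uncertain. The same holds for AFB4, AFB3, AFB1, IAA10 and ARF7, which share 644, 638, 423, 619 and 254 bases with a gene on the opposite strand, and for IAA13. IAA7 stood at 196 ± 8.31 FPKM in WT, 189 ± 2.79 in vtc2, 183 ± 2.77 in vtc4 and 205 ± 21.0 in OE, and IAA16 at 115 ± 5.62, 105 ± 8.84, 110.0 ± 7.89 and 116 ± 6.01. Neither was called in any comparison.

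Other repressors had small differences, none of them called. IAA8 stood at 126, 128 and 136 FPKM in WT and at 118, 110.4 and 120.4 in OE, with no overlap (-0.16, SE 0.055, limma adjusted p = 0.691). IAA27 stood at 13.7, 14.99 and 16.9 FPKM in WT, 17.6, 17.9 and 18.7 in vtc2, 16.5, 20.5 and 20.5 in vtc4 and 16.8, 14.7 and 21.2 in OE, and so was lowest on average in WT. It differed from WT by 0.24 in vtc2 (limma adjusted p = 0.305) and by 0.31 in vtc4 (limma adjusted p = 0.968). IAA13, with 1176 bases shared with a gene on the opposite strand, stood at 23.4 ± 1.8 FPKM in vtc2 and 21.1 ± 0.549 in vtc4 (0.14, limma adjusted p = 0.264).

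No ARF gene was called in any comparison. ARF9 (AT4G23980) had the smallest p-value of the class in vtc2 against WT. It stood at 7.94, 8.06 and 6.92 FPKM in WT, 9.93, 8.52 and 8.99 in vtc2, 7.49, 7.81 and 7.43 in vtc4 and 7.79, 7.78 and 7.77 in OE. The vtc2 libraries were the highest 3, by 0.23 over WT (SE 0.073, limma adjusted p = 0.111) and 0.24 over vtc4 (limma adjusted p = 0.106), and OE against vtc2 gave -0.21 (limma adjusted p = 0.117). ARF5 stood at 2.38, 2.48 and 2.85 FPKM in WT and at 3.21, 3.09 and 3.47 in vtc2 (0.26, SE 0.12, limma adjusted p = 0.252). It was also higher on average in vtc4 (3.00 ± 0.376) and OE (3.21 ± 0.679) than in WT (2.57 ± 0.249), with overlap in both.

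The abundant ARF2 (AT5G62000) stood at 92.0, 85.3 and 70.4 FPKM in WT, a spread that covered all other libraries. It was 83.7, 90.9 and 83.8 in vtc2 against 73.5, 72.9 and 75.4 in vtc4, with no overlap (0.22, SE 0.081, limma adjusted p = 0.163). ARF1 stood at 26.95 ± 1.07 FPKM in WT and 28.1 ± 0.518 in vtc2, ARF8 at 13.5 ± 0.443 and 14.1 ± 1.02, and ARF6 at 11.8 ± 0.786 and 11.6 ± 1.2. ARF11 was lower in OE (6.2 ± 0.524) than in WT (7.20 ± 0.742), with overlap (-0.19, limma adjusted p = 0.907). By type, the 5 activators ARF5, ARF6, ARF7, ARF8 and ARF19 had a median difference of 0.027 in vtc2 against WT and the other 10 ARFs one of 0.064. The known targets of the tasiRNAs from TAS3, ARF2, ARF3 and ARF4, had a median of 0.14, all 3 being positive, those of miR160 (ARF10, ARF16 and ARF17) 0.032 and those of miR167 (ARF6 and ARF8) 0.015. The TAS3 transcript itself stood at 34.7 ± 4.55 FPKM in WT and 29.3 ± 5.14 in vtc2 (-0.25, SE 0.16, limma adjusted p = 0.417). In OE it stood at 30.5 ± 3.20 FPKM (-0.18 against WT), and there all 3 targets were negative against WT (median -0.082). A link between TAS3 and its targets was not tested.

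Counts over the 42 tested members were set against the share of all genes. In vtc2 against WT 1 member was called, and it was lower, as were 2.23% of all tested genes. At an unadjusted limma p below 0.05 there were 7 of 42 (16.7%), against 19.7% of all tested genes. Replicate values did not overlap for 7 members that were higher in vtc2 (IAA27, ARF1, ARF5, ARF9, TIR1, AFB1 and AFB5, 16.7%), against 10.4% of all genes, and for 4 that were lower (IAA1, IAA2, IAA6 and IAA17, 9.52%), against 12.6%. In OE against vtc2, 2 members were called where 5.14% of all genes were, both higher, as were 2.94%. Here 10 members (23.8%) had an unadjusted limma p below 0.05, against 23.3%. There was no overlap for 4 higher members, again IAA1, IAA2, IAA6 and IAA17, against 14.3%, and for 9 lower ones (IAA8, ARF2, ARF3, ARF9, ARF16, TIR1, AFB2, AFB4 and AFB5, 21.4%), against 13.0%.

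In vtc2 against vtc4, 1 member was called where 1.36% of all genes were, and it was lower, as were 0.902%. An unadjusted limma p below 0.05 was found for 9 members (21.4%), against 21.0%. There was no overlap for 5 higher members (IAA7, ARF2, ARF9, TIR1 and AFB5, 11.9%), against 13.9%, and for 5 lower ones (IAA1, IAA2, IAA5, IAA6 and IAA17, 11.9%), against 13.7%. In vtc4 against WT limma called 0 members and 0.0347% of all genes, and 1 member, IAA27, had an unadjusted p below 0.05 (2.38%, against 4.86% of all genes). There was no overlap for IAA1 and IAA11, which were higher, against 5.14%, and for IAA7, TIR1 and AFB5, which were lower, against 5.23%. In OE against WT it called 0 members and 0.0174% of all genes, and 1 member, IAA8, had an unadjusted p below 0.05 (2.38%, against 6.04%). There was no overlap for IAA1, which was higher, against 5.42%, and for IAA8, ARF7, TIR1 and AFB2, which were lower, against 5.49%. The F test called 2.00% of all genes. No test was made over the set.

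The 3 classes differed in the direction of their small differences in vtc2. Against WT, 15 of 21 Aux/IAA genes were negative (median log2 fold change -0.062), 12 of 15 ARF genes were positive (median 0.052) and 6 of 6 receptors were positive (median 0.090). Over all tested genes, 50.4% were positive, with a median of 0.0018. Against vtc4, vtc2 had a median of -0.075 for Aux/IAA genes (15 of 21 negative), 0.090 for ARFs (13 of 15 positive) and 0.082 for receptors (6 of 6 positive), with 49.8% positive among all genes. In OE against vtc2, the medians were 0.068 for Aux/IAA genes (12 of 21 positive), -0.12 for ARFs (13 of 15 negative) and -0.13 for receptors (6 of 6 negative), with 49.5% positive among all genes. In vtc4 against WT the medians were -0.0027, -0.0083 and -0.043, with 10 of 21, 7 of 15 and 2 of 6 positive, against 46.0% of all genes. In OE against WT they were 0.0098, -0.026 and -0.082, with 13 of 21, 4 of 15 and 1 of 6 positive, against 46.5%. The classes thus also differed in direction in OE against WT, a comparison without vtc2. No test was made over a class, so these are descriptions.

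**Figure D4:**
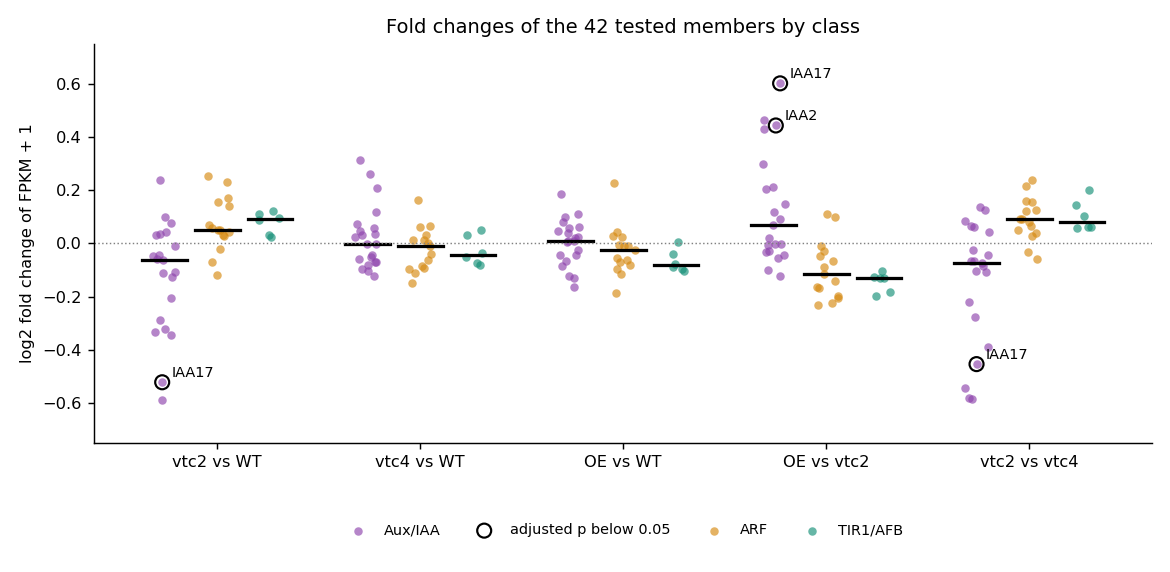
Log2 fold change of each of the 42 tested members in the 5 comparisons, coloured by class, with black bars for class medians and rings for members called at a limma adjusted p below 0.05. In the comparisons with vtc2 the Aux/IAA genes spread widest, and the medians of the ARF genes and the receptors lie on the other side of 0 from that of the Aux/IAA genes.

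Library by library, class means and medians were compared. The mean of the 21 Aux/IAA genes relative to their WT mean, on the log2 scale, was -0.079, -0.20 and -0.098 in vtc2 replicates 1, 2 and 3, and -0.029, -0.025 and 0.054 in WT. The vtc2 libraries lay below the other 9 by the mean but not by the median, which was -0.033, -0.080 and -0.071 in vtc2, -0.055 in vtc4 replicate 1 and -0.033 in OE replicate 2. For the receptors the mean was 0.069, 0.12 and 0.048 in vtc2 and 0.034, -0.0048 and -0.029 in WT, and vtc2 lay above the other 9, by the median (0.071 to 0.13) as well. For the ARFs the mean was 0.085, 0.0996 and 0.030 in vtc2 and 0.055, 0.028 and -0.083 in WT, which overlapped. In FPKM, the summed Aux/IAA level was 1055 ± 28.3 in WT, 964 ± 47.6 in vtc2, 1035 ± 36.5 in vtc4 and 1065.5 ± 41.1 in OE. The summed ARF level was 206 ± 17.0, 216 ± 6.91, 196 ± 3.19 and 197 ± 8.05, and the summed receptor level 136 ± 2.41, 144 ± 4.23, 132 ± 2.82 and 128 ± 6.51. The direction of the Aux/IAA median in vtc2 against WT depended on scaling. With TPM, which moved the median of all genes to 0.081, it was 0.018, while the ARF and receptor medians were 0.14 and 0.17, so that the Aux/IAA median stayed below that of all genes and the other medians above it.

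**Figure D5:**
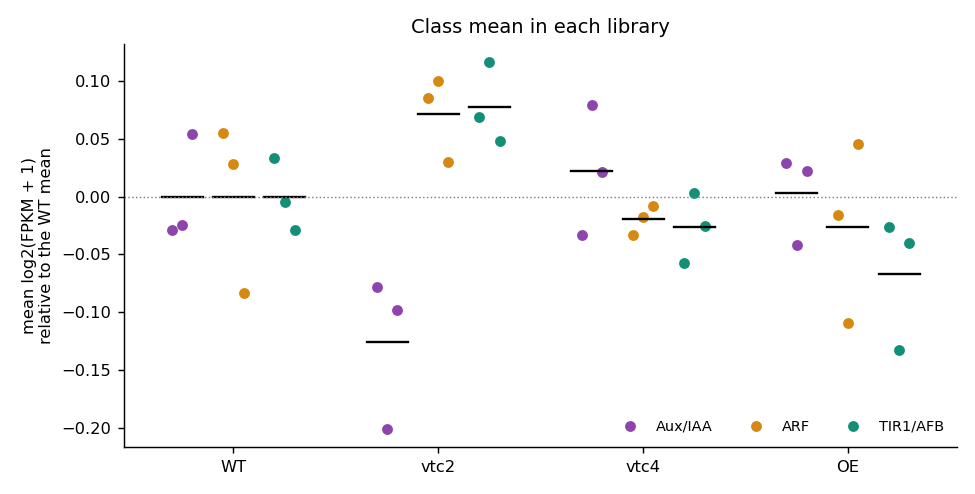
Mean log2(FPKM + 1) of the tested members of each class relative to the WT mean, for each library. Points are libraries and black lines are genotype means. In vtc2 the 3 Aux/IAA points lie below 0, at -0.20 to -0.079, and the 3 receptor points above 0, at 0.048 to 0.12.

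Within the Aux/IAA class, members were also split by their sequence. The 15 tested genes with the Val core had a median of -0.13 in vtc2 against WT and the 5 with the Ile core 0.032. Against vtc4 both were negative, at -0.11 and -0.067. The 7 tested genes with TGTCTC in the upstream window had a median of -0.29, with 6 of 7 negative. The 14 without it had one of -0.060, with 9 of 14 negative. The median with the motif was the value of IAA3, which is uncertain as given above. Against vtc4 the medians with and without the motif were -0.22 and -0.035. IAA17 and IAA2, the called members, belong to the Val group and to the genes without the motif.

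Genes of other steps of the pathway were examined as background to the 3 classes. The 5 TOPLESS co-repressor genes, TPL and TPR1 to TPR4, were positive in vtc2 against WT (median 0.13) and against vtc4 (median 0.18). They were negative in OE against vtc2 (median -0.19). Each time limma called 0 of 5, against 3.02%, 1.36% and 5.14% of all tested genes in that order. TPL stood at 61.3 ± 7.46 FPKM in WT, 69.9 ± 4.98 in vtc2, 57.6 ± 0.917 in vtc4 and 59.9 ± 1.5 in OE. Of 11 genes of the SCF ligase and its RUB pathway, limma called 1 as lower in vtc2 than in WT, as it did 2.23% of all tested genes. It called 0 of the 11 in the other comparisons. RUB1, which encodes the ubiquitin-like modifier of the ligase's cullin, fell from 46.0 ± 3.66 FPKM in WT to 36.7 ± 1.32 in vtc2 (a log2 difference of -0.31 with an SE of 0.061 and a limma adjusted p of 0.0218), beside 44.6 ± 0.560 in vtc4 and 42.9 ± 1.3 in OE. Its near-identical copy RUB2 stood at 49.8 ± 2.31 in WT and 50.4 ± 4.52 in vtc2, so reads could have been split between them and both values are uncertain. The RUB1 call ended with TPM (limma adjusted p = 0.105), with only those groups in the fit (0.106), without WT replicate 2 or 3 (0.0547 and 0.0768) and without vtc2 replicate 2 or 3 (0.0765 and 0.0938). None of the 8 other ARF genes, ARF12 to ARF15 and ARF20 to ARF23, passed the filter. ARF12 reached at most 0.0253 FPKM, and the rest were listed at 0 in every library, which as said above is not read as absence. Among 4 other auxin receptor or signalling genes limma called 0, and the one with the smallest p, the F-box gene SKP2A, differed by 0.11 between OE and WT (limma adjusted p = 0.918).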

How the data were processed

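Transcripts were measured by paired-end sequencing (75 bases per read, stranded mRNA kit) of 12 rosette libraries, grouped by the genotype in their titles. The authors deposited 1 table of FPKM values, with each library in its own column. The build was TAIR10, and Cuffdiff, Cufflinks 2.2.1, HISAT2 2.1.0 and Trimmomatic 0.36 are named, per the submitters' processing notes. Annotation, strand setting and normalization option are not given in the sources used here. FPKM keeps no read totals, so the depth is unknown and no counting intervals were computed. Sums per library were 684606 to 757484 FPKM. Of 33618 IDs, 32217 matched TAIR10.1 (RefSeq), which supplied coordinates and sequence.

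limma 3.58.1 in R 4.3.3 was run on log2(FPKM + 1) with genotype as the only term, all 12 libraries in 1 fit, a mean-variance trend and two-sided tests, for 5 comparisons and an F test. The fit was also run on simulated data with normal noise, and no call rate from that run is used for the results here. The degron core was to be read from protein sequences. Coding sequence of TAIR10.1 was translated instead, any isoform counting, and the Ile form was added after seeing which members lacked the Val form. Alternatives were a pseudocount of 0.1, no filter, a mean of at least 5 FPKM, median-ratio, TPM and quantile scaling, a replicate block, only the groups compared, and each library left out. The members, lists and naming rule were chosen with earlier results of these data known. Named were all receptors, called members, the 4 smallest p per comparison, the 5 highest Aux/IAA and 4 highest ARF genes, every untested member, and per other list the called genes or the smallest p. Members whose replicates did not overlap, the most variable members, IAA14 and RUB2 were named beyond that rule, after their values were seen. Of 8 loci of small RNAs, 2 matched the table and TAS3 passed the filter.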

Additional observations from a re-analysis of the deposited data

How the results depend on the processing

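Limits come first. With 3 libraries per genotype and no read totals, no receptor or ARF was called, which does not show that differences are absent. With TPM, TIR1 and AFB5 were called in OE against vtc2, where TPM also moved the median of all genes to -0.052. Members called in vtc2 against WT numbered 2 with quantile normalization (IAA17 and IAA6), 0 with only the 2 groups compared, and 1 to 3 with 1 library left out. In OE against vtc2 they numbered 3 with TPM (IAA17, TIR1 and AFB5, with IAA2 lost), 1 without a filter and 1 with only the 2 groups compared, and 1 to 5 with 1 library left out (5 without vtc2 replicate 1, which were IAA1, IAA2, IAA3, IAA6 and IAA17). In vtc2 against vtc4 they numbered 2 without a filter (IAA17 and IAA34, the latter at most 0.333 FPKM), 2 with a mean of at least 5 FPKM and 2 with quantile normalization (IAA1 and IAA17 in both), 0 with only the 2 groups compared, and 0 to 4 with 1 library left out. Calls over all genes moved as well. In vtc2 against vtc4 the main fit called 236 of 17290 genes. Without vtc2 replicate 1, where 4 members were called, it was 721 of 17229. It was 136 of 24296 without a filter and 13 of 17290 with only the 2 groups compared. In OE against vtc2 the all-gene count rose from 888 to at most 1302 with 1 library left out, and in vtc2 against WT from 523 to at most 726. Under the other 8 alternatives it ran from 93 to 906 in OE against vtc2 and from 13 to 602 in vtc2 against WT. In vtc2 against vtc4 it ran from 13 to 319 under them. Whether the members moved more than all genes was not tested. The F test gave 1 to 3 with 1 library left out. In vtc4 and OE against WT 0 members were called under every alternative, by limma. IAA17 kept its calls in vtc2 against WT (limma adjusted p up to 0.0215, without vtc2 replicate 3) and in OE against vtc2 (up to 0.0142, without OE replicate 1) with any 1 library left out.

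Class medians moved by more than the spread between replicates in these cases. With TPM, in vtc2 against WT, they were 0.018 for Aux/IAA genes, 0.136 for ARFs and 0.174 for receptors, in OE against vtc2 0.0148 for Aux/IAA genes and -0.185 for receptors, and in vtc2 against vtc4 -0.00381 and 0.155. With a mean of at least 5 FPKM the Aux/IAA median in OE against vtc2 was 0.0216. With 1 library left out, the Aux/IAA median ran from -0.125 to -0.0332 in vtc2 against WT and from -0.0668 to 0.0389 in vtc4 against WT. Over all genes, TPM moved the share of higher genes among those called from 26.4% to 57.6% in vtc2 against WT, from 57.2% to 37.4% in OE against vtc2 and from 33.9% to 63.3% in vtc2 against vtc4. All-gene counts with 1 library left out ran from 77 to 726 in vtc2 against WT (77 without vtc2 replicate 3), 124 to 1302 in OE against vtc2 (124 without OE replicate 1), 7 to 721 in vtc2 against vtc4 (7 without vtc4 replicate 2), 6 to 12 in vtc4 and 3 to 20 in OE against WT, and 45 to 433 for the F test. With only the 2 groups compared they were 13, 93, 13, 19 and 7, and without a filter 136 in vtc2 against vtc4 and 178 for the F test. A mean of at least 5 FPKM left 2 in OE against WT. For single named genes, 2645 results under an alternative stayed on their side of the threshold, 21 gained and 19 lost a call, and 0 of the called ones changed sign. No clear pairing of the libraries by replicate number was seen. Deviations from genotype means correlated by -0.17 to 0.20 in same-numbered libraries, with 6 of 18 pairs over 0.1. For other pairs it was -0.35 to 0.32, with 9 of 36 over 0.1. Deviations within a genotype sum to 0, so the correlations depend on each other and do not exclude a shared replicate effect. With the replicate block the fit called 2 members in vtc2 against vtc4 (IAA17 and IAA5) and as many as before in the other comparisons. The cause was not tested for any of these changes.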

Other observations

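A few pairs of Aux/IAA genes lie close together on opposite strands with 1 other gene between them, and their values are given side by side. IAA3 and IAA17 on chromosome 1 (6388 bases apart) differed by -0.29 and -0.52 in vtc2 against WT on the log2 scale. IAA2 and IAA7 on chromosome 3 (12510 bases apart) differed by -0.34 and -0.057, and IAA14 and IAA1 on chromosome 4 (10732 bases apart) by -0.062 and -0.32. All 6 values were negative, as were 15 of the 21 tested Aux/IAA genes, to which these 6 belong. IAA17 alone was called by limma, and the difference between partners was not tested.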
